A study of Mus musculus with 24 samples.

Results

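The skeletal muscle fibre genes are 42 genes that encode the contractile filaments of striated muscle, the enzymes that supply them with ATP, the calcium machinery that triggers contraction and the Z-disc proteins that hold the sarcomeres together. They were taken from a fixed list of gene symbols, matched to 42 of the 39017 gene identifiers in the count table, and the rule uses no expression value. Of the 42, 14 belong to fast fibres, 8 to slow fibres and 20 to fibres of either kind. RNA sequencing had been carried out on dorsal skin of female C3H/HeJ mice, about 30 weeks old at termination, with 6 libraries in each of 4 groups. The 8w off treatment group held mice with graft-induced alopecia areata (AA) that had eaten a JAK1 inhibitor, Cmpd A, at about 100 mg/kg daily for 4 weeks and were killed after a further 8 weeks without drug. The systemic JAK1i group was a biopsy from those same 6 mice while alive, at the end of the 4 weeks of dosing. The AA group had developed disease and no drug, although the library names carry a vehicle tag, and the healthy group had neither disease nor drug; skin of both was taken at week 12. The labels do not say which 8w off treatment library shares a mouse with which systemic JAK1i library, so these 12 libraries came from 6 animals and are not independent, and the JAK1i skin was the only skin taken by biopsy and at week 4.

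Mouse dorsal skin lies on a thin sheet of skeletal muscle, the panniculus carnosus, which twitches the skin and is cut away with it to a varying extent. Muscle fibres are sorted by the myosin heavy chain they carry: type I fibres are slow and oxidative, type IIa fibres are fast and oxidative, type IIx fibres are intermediate and type IIb fibres are the fastest and most glycolytic. Slow and fast fibres also differ in their light chains, troponins and myosin-binding protein C, so the same list of genes reports on the amount of muscle and on the kinds of fibre. None of the 42 genes tells the panniculus from another skeletal muscle. In bulk skin, fewer muscle fibres and less RNA per fibre cannot be told apart.

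Adult fast fibres express 3 heavy chain genes that lie next to each other on chromosome 11 (GRCm38): Myh2 (type IIa) at 67171027 to 67197517, Myh1 (type IIx) at 67200052 to 67224575 and Myh4 (type IIb) at 67238029 to 67260446, all on the forward strand. Their promoters are shown because the ratio of Myh1 to Myh4 differed widely between the libraries, together with that of Mybpc1, the slow myosin-binding protein C, and Myh7, the heavy chain of type I fibres. Each runs from 250 bases before the RefSeq start site to 50 after it on GRCm38.p6, at chr11:67199852-67200151 for Myh1, chr11:67170777-67171076 for Myh2 and chr11:67237562-67237861 for Myh4 on the forward strand, and at chr10:88605103-88605402 for Mybpc1 and chr14:54994577-54994876 for Myh7 on the reverse strand. Capitals mark CAGCTG, the form of the E-box preferred by the myogenic factors such as MyoD. They also mark TATAAA, the sequence of the TATA box, at any position, and the site of the muscle factor MEF2. Each was searched on both strands.
Myh1: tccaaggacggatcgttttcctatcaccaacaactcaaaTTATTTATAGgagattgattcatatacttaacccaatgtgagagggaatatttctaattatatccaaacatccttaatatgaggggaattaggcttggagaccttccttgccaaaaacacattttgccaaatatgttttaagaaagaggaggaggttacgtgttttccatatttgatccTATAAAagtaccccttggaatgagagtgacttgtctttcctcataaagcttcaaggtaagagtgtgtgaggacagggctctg
Myh2: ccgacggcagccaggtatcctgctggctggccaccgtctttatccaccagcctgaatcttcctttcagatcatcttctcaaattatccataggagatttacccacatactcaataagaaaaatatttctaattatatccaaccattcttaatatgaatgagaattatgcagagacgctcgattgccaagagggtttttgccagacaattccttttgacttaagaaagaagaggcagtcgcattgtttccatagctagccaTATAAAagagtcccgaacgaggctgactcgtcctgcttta
Myh4: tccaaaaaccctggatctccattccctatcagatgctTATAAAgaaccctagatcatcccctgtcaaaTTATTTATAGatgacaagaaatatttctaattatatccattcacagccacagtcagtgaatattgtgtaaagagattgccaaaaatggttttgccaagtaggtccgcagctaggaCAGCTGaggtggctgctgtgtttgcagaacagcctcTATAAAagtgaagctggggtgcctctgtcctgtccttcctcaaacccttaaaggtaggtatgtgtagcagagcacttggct
Mybpc1: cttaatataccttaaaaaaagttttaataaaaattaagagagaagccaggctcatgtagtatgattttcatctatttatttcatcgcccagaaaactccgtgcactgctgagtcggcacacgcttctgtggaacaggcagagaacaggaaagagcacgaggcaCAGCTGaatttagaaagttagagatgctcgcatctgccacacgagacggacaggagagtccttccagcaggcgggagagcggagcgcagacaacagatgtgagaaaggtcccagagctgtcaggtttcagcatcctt
Myh7: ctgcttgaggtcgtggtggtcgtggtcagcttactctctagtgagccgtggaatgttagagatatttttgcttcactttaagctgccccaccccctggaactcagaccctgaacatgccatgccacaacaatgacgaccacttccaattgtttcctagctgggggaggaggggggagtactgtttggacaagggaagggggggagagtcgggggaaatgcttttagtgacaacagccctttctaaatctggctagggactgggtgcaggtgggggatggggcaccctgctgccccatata
The Myh1 and Myh4 promoters held the same MEF2 site, TTATTTATAG, starting at -211 and -182 from the start site. A TATAAA that overlaps each MEF2 site is read on the other strand. The other marked TATAAA started at -32 in Myh1, at -213 and -31 in Myh4 and at 10 in Myh2, after its start site. No MEF2 site or CAGCTG was found in the Myh2 and Myh7 windows, and CAGCTG was found in those of Myh4 and Mybpc1. All 3 fast heavy chain promoters contained the 20-base run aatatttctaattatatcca, which no other promoter window of the reference held. Promoters were matched for 34 of the 42 members, counting 1 window per gene: CAGCTG was present in 18 of the 34 (52.9%), against 16.1% of 27025 promoters, a MEF2 site in 6 (17.6%), against 3.3%, and a CArG box, the site of serum response factor, in 4 (11.8%), against 1.6%. These are descriptions of the letters in the windows and say nothing of binding in these skins.

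The amount of muscle RNA varied widely in every group except the biopsies taken on the drug. The 42 members took 2.54 to 10.6% of the counts of a library in 8w off treatment skin (median 6.66%), 7.33 to 9.05% in systemic JAK1i skin (median 8.02%), 2.20 to 6.14% in AA skin (median 2.67%) and 0.187 to 8.16% in healthy skin (median 3.69%). Healthy A and E, at 0.214% and 0.187%, stood far below the other healthy libraries, of which the next lowest, C, had 1.64%. The highest share was 4.17 times the lowest in 8w off treatment, 1.23 times in systemic JAK1i, 2.79 times in AA and 43.6 times in healthy skin. The 6 systemic JAK1i libraries lay above every AA library, while the other groups overlapped. Group means were 6.65 ± 3.42% in 8w off treatment, 8.15 ± 0.677% in systemic JAK1i, 3.52 ± 1.64% in AA and 3.69 ± 3.44% in healthy skin (SD, n = 6 each); no test was run on this sum. Ttn, which encodes the giant elastic protein titin, supplied 47.3 to 59.4% of the member counts in every library because its transcript is so long.

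**Figure D1:**
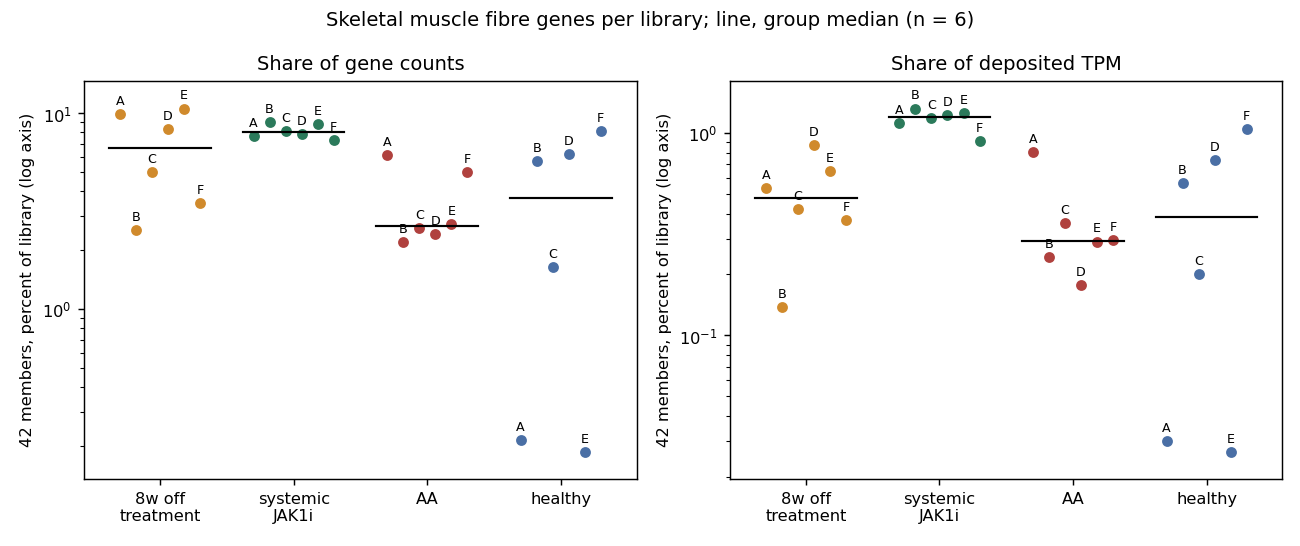
Share of each library taken by the 42 members, in percent of counts (left) and in percent of the deposited TPM (right), on log axes; letters name the libraries and lines are group medians of 6. The systemic JAK1i libraries lie between 7.33 and 9.05% of counts, and healthy A and E lie at 0.214 and 0.187%.

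In TPM, the deposited transcript abundances, which correct for transcript length, the group medians kept their order but the overlap between groups changed. The members took 0.138 to 0.868% of TPM in 8w off treatment, 0.908 to 1.32% in systemic JAK1i, 0.178 to 0.808% in AA and 0.0266 to 1.05% in healthy skin. On this scale the JAK1i libraries exceeded every 8w off treatment library as well as every AA library, whereas in counts 8w off treatment A, D and E had 9.93, 8.31 and 10.6%. The 10 most abundant genes of a library took 61.2 to 81.1% of its TPM in 8w off treatment and 41.3 to 51.3% in systemic JAK1i, so the remainder left to all other genes differed between these groups; the part of this in the members' shares was not tested. Total counts in genes were 3444193 to 5766105 in 8w off treatment, 5559273 to 11233020 in systemic JAK1i, 3859132 to 8472874 in AA and 3649611 to 6407908 in healthy libraries. Mitochondrial rRNA and tRNA took 3.28 to 5.58%, 2.37 to 3.07%, 1.82 to 2.51% and 1.34 to 4.2% of counts in these groups in the same order. As a check of the labelled tissue, 8 markers of basal and suprabasal keratinocytes together took 0.771 to 1.67% of the counts of every library.

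The members moved together from library to library. Over the 24 libraries, the log2 CPM (counts scaled to library size with TMM factors) of 32 of the 40 members with enough counts to be tested had a Pearson r of at least 0.9 with the mean of the other members, and the median r was 0.98. Acta1, the skeletal alpha-actin of the thin filament, Ckm, the muscle creatine kinase that regenerates ATP, and Atp2a1, the calcium pump of the fast sarcoplasmic reticulum, were among those with r of 0.99 or above. The 8 exceptions were Myh1, Myh4, Tnnc2, Myoz2, Myl2, Tnni1, Tnnt1 and Myh7, 5 of them slow fibre genes, and the lowest r was 0.39, for Tnni1. The points share libraries and depth, so these values are descriptions.

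Outside the list, 184 of 16208 other genes reached an r of 0.9 with the members' mean. Among the 15 highest, at r of 0.985 to 0.993, were Trdn, Tmem38a, Jsrp1, Eef1a2, Scn4a, 1110002E22Rik, Fbxo40, Srl, Alpk3, Hrc, Rpl3l, Cox6a2, Klhl41 and Pgam2. Trdn encodes triadin of the calcium release complex and Scn4a the sodium channel of the fibre membrane. Of 46 further skeletal muscle genes on a fixed list, 34 reached 0.9 and the median r was 0.96, against -0.03 for all other genes. For markers of other cells the median r was 0.10 for 10 adipocyte genes (highest 0.37), -0.19 for 10 smooth muscle genes (highest 0.88) and -0.20 for 8 dermal fibroblast genes. None of the 3 cardiac genes with enough counts reached 0.9, and 5 of the 8 cardiac genes had too few counts to be tested.

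Compared per length, the thin filament and the fast isoforms led. In systemic JAK1i skin the median TPM was 1560 for Acta1, 1050 for Tnnt3, the fast troponin T, 848 for Tnni2, the fast troponin I, 825 for Mylpf, the fast regulatory light chain, and 783 for Ckm. Slow counterparts were far lower, at 3.71 TPM for Tnnt1, 0.51 TPM for Tnni1 and 3.07 TPM for Myl2. In healthy skin Acta1 ranged over 18.3 to 1340 TPM and Tnnt3 over 11.8 to 878 TPM, with Tnnt1 at 2.66 to 8.60 TPM. Mybpc1, which carries a slow label here but is also known from fast fibres, stood apart from the other slow members, at a median of 115 TPM in systemic JAK1i skin and 22.1 TPM in healthy skin.

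Of the fast heavy chains, Myh1 separated the biopsies from the other skins and Myh4 did not. Myh1 reached 9.14, 44.2 and 260 TPM (lowest, median and highest of 6) in 8w off treatment, 613, 650 and 808 TPM in systemic JAK1i, 23.6, 37.7 and 87.1 TPM in AA and 5.45, 66.9 and 109 TPM in healthy skin. Every JAK1i library was above all 18 others. Myh4 did not follow, with 148, 431 and 570 TPM in 8w off treatment, 98.6, 341 and 555 TPM in systemic JAK1i, 161, 253 and 666 TPM in AA and 5.18, 273 and 832 TPM in healthy skin, and its groups overlapped throughout. Myh2, the type IIa chain, had 4.33, 16.7 and 59.5 TPM in 8w off treatment, 59.3, 62.9 and 84.9 TPM in systemic JAK1i, 8.10, 10.8 and 28.2 TPM in AA and 1.11, 18 and 44.0 TPM in healthy skin. On this scale the lowest JAK1i library, at 59.3 TPM, fell just below the highest 8w off treatment library, at 59.5 TPM.

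As a share of the summed TPM of Myh1, Myh2 and Myh4, Myh1 made up 5.65 to 11.0% in 5 libraries of 8w off treatment skin and 29.4% in library D. It made up 49.8 to 79.3% in systemic JAK1i, against 9.04 to 16.9% in AA and 10.8 to 46.3% in healthy skin. Healthy A and E, the libraries with the least muscle RNA, had 46.3% and 44.0%, and the other 4 healthy libraries had 10.8 to 19.7%. The log2 ratio of Myh1 to Myh4 was -3.12 ± 1.07 in 8w off treatment, 1.24 ± 0.98 in systemic JAK1i, -2.87 ± 0.38 in AA and -1.53 ± 1.38 in healthy skin (SD, n = 6 each). This ratio was picked after its values were seen and so carries no test. The chains are near-identical in sequence, and reads shared between them could have been assigned either way; Myh1 also lies opposite the antisense gene Myhas.

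**Figure D2:**
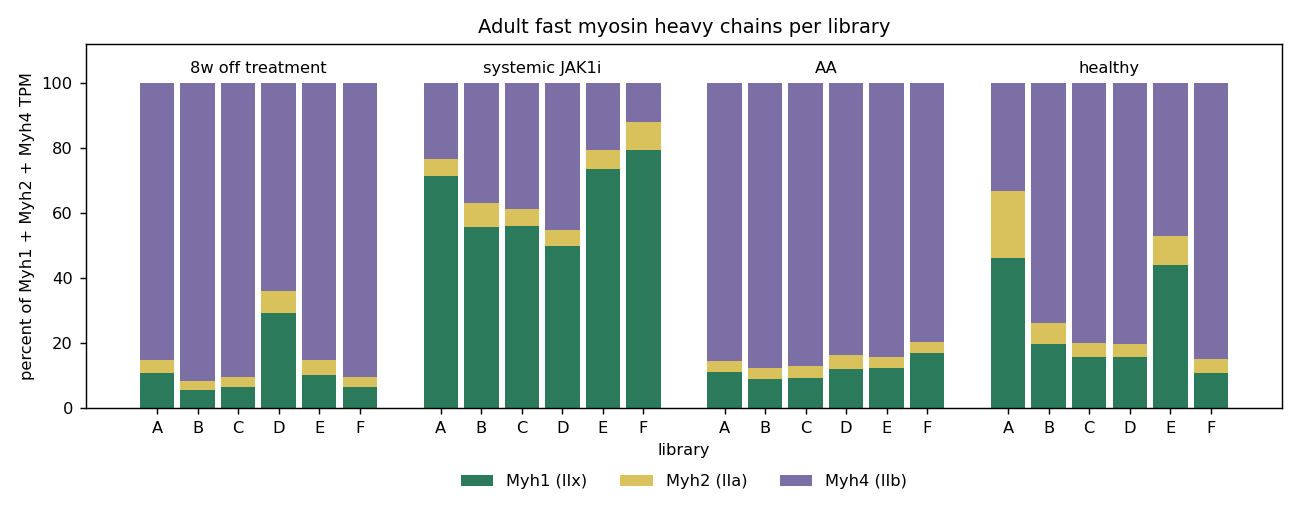
Shares of Myh1, Myh2 and Myh4 in their summed TPM, in percent, with 1 bar per library and libraries grouped by condition. Myh1 takes 49.8 to 79.3% in the 6 systemic JAK1i libraries, and Myh4 takes 79.7 to 87.7% in the 6 AA libraries.

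Differences between groups were tested with edgeR's quasi-likelihood test on the counts of all 24 libraries, with p-values adjusted by the Benjamini-Hochberg method over 16248 genes and a threshold of 0.05. Of the 42 members, 40 entered; Myl3 and Tnnc1, the slow light chain and the slow troponin C, had too few counts, with at most 7 and 19 reads in a library. Log2 fold changes are given with their standard errors, and the adjusted p-values below are all from this test. The 6 comparisons draw on the same 4 groups and so are not independent of each other, and nothing in the labels says more of the 6 libraries of a group than that they are separate samples.

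Systemic JAK1i against AA sets skin biopsied at the end of dosing beside undosed diseased skin taken at week 12. Of the 40 members, 4 rose and 1 fell in this comparison, in which 47.7% of all genes tested were called (22.9% higher and 24.8% lower). Myh1 rose by 3.24 ± 0.73 on the log2 scale, 9.42-fold (adjusted p = 0.00089), with 4470 to 6090 CPM in systemic JAK1i and 237 to 1160 CPM in AA skin. It was the only member past the thresholds the study used, a false discovery rate of 0.001 with a change of more than 4-fold, which 3.79% of genes passed. Mybpc1 rose by 2.12 ± 0.56 (adjusted p = 0.0035), with 610 to 746 CPM in systemic JAK1i and 90.1 to 263 CPM in AA skin. Myh2 rose by 1.66 ± 0.62 (adjusted p = 0.031) and Xirp2, an actin-binding repair protein of the Z-disc and the junctions between fibres, by 1.81 ± 0.66 (adjusted p = 0.027). The Myh1 and Mybpc1 calls held without any 1 library, the Xirp2 call was lost without AA B, C, D or E and the Myh2 call without those or systemic JAK1i B or F. Over the 12 libraries left out in turn, the log2 fold change was 1.70 to 2.02 for Xirp2 and 1.55 to 1.87 for Myh2.

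For these 4 genes the groups did not overlap. Xirp2 had 967, 1240 and 1480 CPM (lowest, median and highest) in systemic JAK1i and 219, 247 and 584 CPM in AA skin, and Myh2 had 444, 493 and 699 CPM in systemic JAK1i and 99.8, 139 and 280 CPM in AA skin. In all, 22 of the 40 members were separated in this way, all with JAK1i above AA, against 26.9% of all genes separated in either direction. Among them Acta1 had 3280, 3570 and 4170 CPM in systemic JAK1i and 903, 1130 and 2870 CPM in AA skin, a difference of 1.24 ± 0.69 that missed the threshold (adjusted p = 0.15). The members' median log2 fold change was 1.06, that of all genes -0.01, and 36 of 40 were positive.

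The number of calls differed between fits. When only the 12 libraries of these groups were fitted, 32 of 35 members rose, none fell, and 7830 of 15546 genes were called; Tnnt1 did not pass the count filter there. On the log2(TPM + 0.1) scale 27 of 40 members rose and none fell, where 9708 of 19721 genes were called and the median of all genes was 0.68. Myh4 went the other way from its neighbours, with 1090, 3240 and 5050 CPM in systemic JAK1i and 3130, 3660 and 7630 CPM in AA skin, and its difference of -0.57 ± 0.75 was not called in either fit (adjusted p = 0.55 over 24 libraries, 0.19 over 12).

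Tnnt1, the slow skeletal troponin T, was the member that fell, by 1.69 ± 0.60 on the log2 scale (adjusted p = 0.023). It had 0.599, 0.814 and 1.29 CPM in systemic JAK1i and 1.06, 2.62 and 4.30 CPM in AA skin, a difference that rests on 4 to 9 reads per systemic JAK1i library and 4 to 38 per AA library. The call was lost without AA A or B (log2 fold changes of -1.83 to -1.45 over the 12 libraries left out in turn). In the deposited TPM its groups overlapped broadly, at 3.12 to 5.52 in systemic JAK1i and 2.44 to 6.77 in AA skin. Tnni1, the slow troponin I, differed by -1.08 ± 0.51 (adjusted p = 0.083) and Myh7 by -1.09 ± 1.59 (adjusted p = 0.59), neither of them called.

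**Figure D3:**
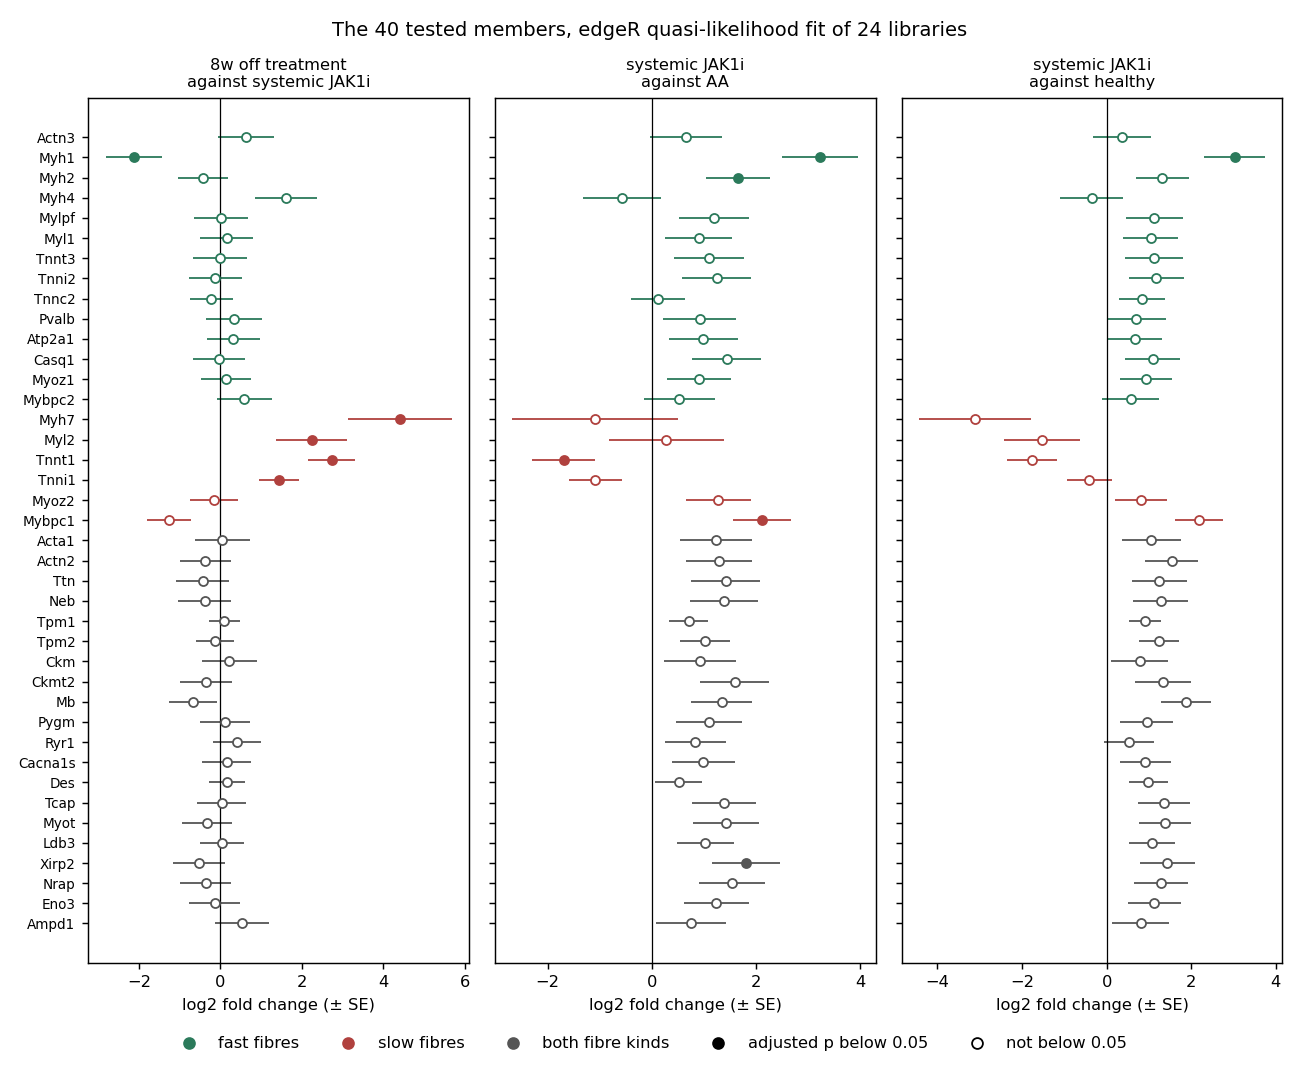
Log2 fold changes with standard errors of the 40 tested members in 3 comparisons, with fast, slow and shared members in different colours and called members as filled points. In systemic JAK1i against AA most members lie near 1, Myh1 lies at 3.24 and Tnnt1 at -1.69.

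8w off treatment against systemic JAK1i compares the same mice 8 weeks apart, though not matched animal by animal. Here 4 members rose and 1 fell, with 35.9% of all genes called (19.4% higher and 16.6% lower). All 4 that rose are slow fibre genes: Myh7 by 4.40 ± 1.28 (adjusted p = 0.0095), Tnnt1 by 2.73 ± 0.57 (adjusted p = 7e-04), Myl2, the slow regulatory light chain, by 2.24 ± 0.87 (adjusted p = 0.047) and Tnni1 by 1.43 ± 0.49 (adjusted p = 0.027). Tnnt1 passed the study's thresholds, as did 2.51% of genes. Myh1 was the member that fell, by 2.13 ± 0.69 (adjusted p = 0.019), to 206, 1020 and 2940 CPM in 8w off treatment, against 4470, 5200 and 6090 CPM in systemic JAK1i.

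The slow genes rose at very low counts. Myh7 had 9.73, 0, 1.75, 32.4, 18.1 and 0 CPM in 8w off treatment A to F, against 0 CPM in 5 systemic JAK1i libraries and 3.49 CPM in B. Tnnt1 had 2.05, 5.19 and 12.1 CPM in 8w off treatment and 0.599, 0.814 and 1.29 CPM in systemic JAK1i, with no overlap. The highest value of Myh7, Myl2, Tnnt1 and Tnni1 was in each case that of 8w off treatment D, where they had 180, 61, 67 and 30 reads. The Myh7 call held without any 1 library, with a value of 3.54 without 8w off treatment D; without systemic JAK1i B that group had no read at all, and the fitted value of 8.89 is then no measure of size. The Myl2 call was lost without 8w off treatment D or E or without systemic JAK1i A, C, D, E or F, and also with no filter on counts, DESeq2, limma-voom or the replicate block. The Tnni1 call was lost without 8w off treatment D or systemic JAK1i C, D or E. In TPM the difference turned for Myh7, Myl2 and Tnnt1, to -0.23, -0.68 and -0.22 on the log2(TPM + 0.1) scale, and none of these was called. On that scale 17 of 40 members fell and none rose, where 15866 of 19721 genes were called and the median of all genes was -1.18.

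Only Tnnt1, higher, and Myh1 and Mybpc1, lower, were separated without overlap in 8w off treatment against systemic JAK1i, against 18% of all genes. Mybpc1 had 83.1, 274 and 508 CPM in 8w off treatment and 610, 685 and 746 CPM in systemic JAK1i, a difference of -1.26 ± 0.55 that was not called (adjusted p = 0.074). Myh4 differed by 1.6 ± 0.76 (adjusted p = 0.10), with 4250, 7830 and 16800 CPM in 8w off treatment and 1090, 3240 and 5050 CPM in systemic JAK1i. Fitted on these 12 libraries alone, Myh4 was called higher (adjusted p = 0.0077) and Mybpc1 lower (adjusted p = 0.021). The median over the 40 members was 0.03, and genes of both fibre kinds ranged only from -0.67 for Mb, the oxygen store myoglobin, to 0.53 for Ampd1, the muscle AMP deaminase.

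**Figure D4:**
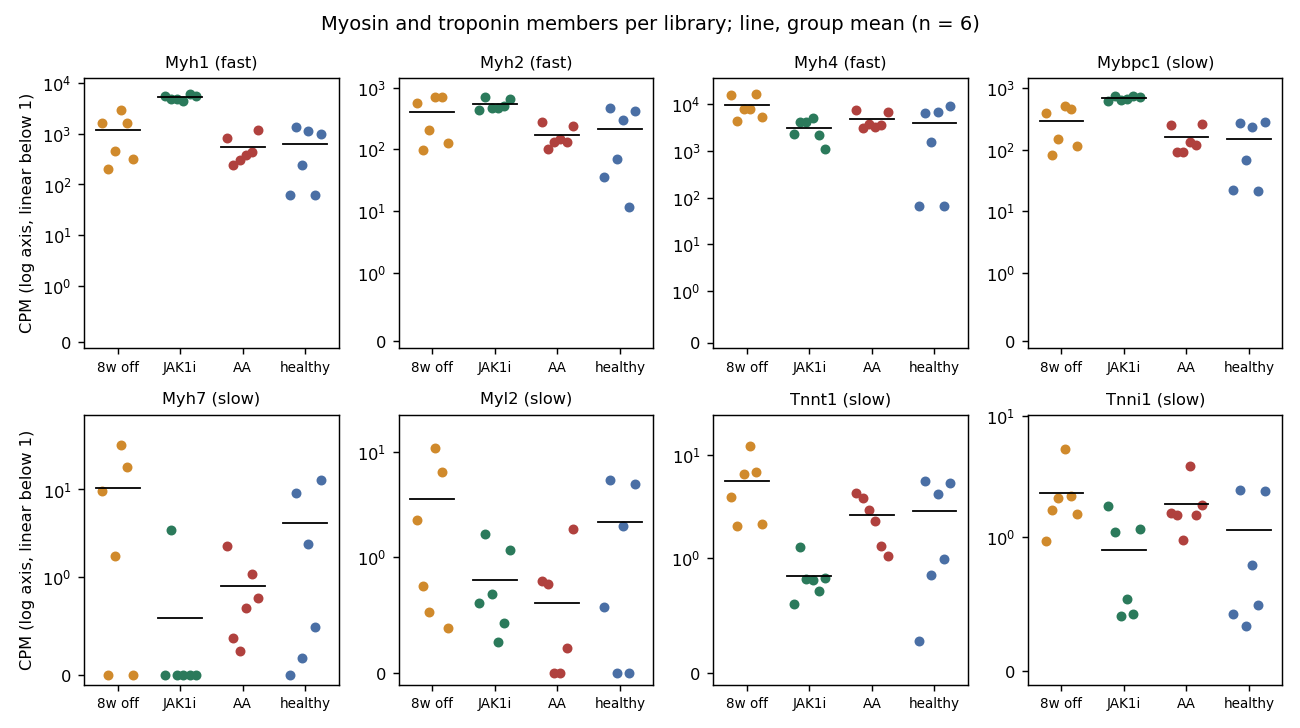
CPM per library of 8 heavy chain, binding protein, light chain and troponin members, on an axis that is logarithmic above 1 and linear below, with lines at the group means of 6. Myh1 in the systemic JAK1i libraries (4470 to 6090 CPM) lies above all others, while Myh7 is at 0 in 5 of those 6 libraries.

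Systemic JAK1i against healthy sets the biopsies beside skin without disease or drug. Myh1 alone rose, by 3.03 ± 0.72 on the log2 scale (adjusted p = 0.043), while 1.05% of all genes were called (0.511% higher and 0.535% lower). It did not pass the study's thresholds, as 0.0123% of genes did. It had 4470, 5200 and 6090 CPM in systemic JAK1i and 61.3, 610 and 1370 CPM in healthy skin. The call was lost without any 1 of the systemic JAK1i libraries or of healthy A, C, D and E, with log2 fold changes of 2.79 to 3.41 over the 12 libraries left out in turn. Without both muscle-poor libraries, healthy A and E, the difference was 2.50 and was not called (adjusted p = 0.14). Mybpc1, at 610 to 746 CPM in systemic JAK1i and 21.3 to 284 CPM in healthy skin, differed by 2.19 ± 0.56 (adjusted p = 0.057). With limma-voom and sample quality weights, which down-weight libraries that stand apart, 34 of 40 members rose, and 1978 of 16248 genes were called in either direction.

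The groups did not overlap for 5 members, all higher in systemic JAK1i, against 2.56% of all genes: Myh1, Mybpc1, Tpm2, Mb and Tcap. Tpm2 encodes beta-tropomyosin, and Tcap encodes telethonin, which caps titin at the Z-disc. Mb had 134, 202 and 256 CPM in systemic JAK1i and 2.23, 53.4 and 102 CPM in healthy skin, a difference of 1.88 ± 0.60 (adjusted p = 0.11). The slow genes Myh7, Tnnt1, Myl2 and Tnni1 had negative values, of -3.11, -1.76, -1.53 and -0.41, none of them called. Over the 40 members the median was 1.05, and 0.49 without healthy A and E.

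AA against healthy showed no called member, while 40.2% of all genes were called (20.9% higher and 19.3% lower). No member passed the study's thresholds, against 3.48% of genes, and none was separated without overlap, against 14.3%. At an unadjusted p below 0.05 the edgeR count was also 0, and DESeq2 called none, while limma-voom with quality weights called 3 higher and limma on log2(TPM + 0.1) called 1 lower. The median log2 fold change was -0.07, and the members lay between -2.02 for Myh7 and 0.72 for Tnnc2. Ckm had 367, 472 and 1170 CPM in AA and 19.6, 696 and 1590 CPM in healthy skin, and Ryr1, the calcium release channel, had 281, 355 and 697 CPM in AA and 36.0, 560 and 1080 CPM in healthy skin. The healthy values spanned those of AA for both. Without healthy A and E the members' median was -0.63, and still none was called.

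8w off treatment against healthy gave 1 member that rose, Tpm1, against 32.7% of all genes called (16.9% higher and 15.7% lower). No member passed the study's thresholds, against 2.16% of genes, and none was separated without overlap, against 8.97%. Tpm1, the alpha-tropomyosin gene, which is also expressed outside skeletal muscle, rose by 0.99 ± 0.38 (adjusted p = 0.048), with 671 to 2140 CPM in 8w off treatment and 194 to 1240 CPM in healthy skin. The call was lost without 8w off treatment A, D or E or healthy A, C or E, and its log2 fold change over the 12 libraries left out in turn was 0.79 to 1.29. All 40 members had positive values, of 0.62 to 1.39, with a median of 1.05, against 0.01 for all genes. The median fell to 0.50 without healthy A and E and to 0.51 without 8w off treatment A and E. With limma-voom and quality weights 36 of 40 members rose, and 6628 of 16248 genes were called in either direction.

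8w off treatment against AA gave no called member, where 1.37% of all genes were called (0.726% higher and 0.64% lower). None passed the study's thresholds, against 0.0246% of genes, and none was separated without overlap, against 1.28%. At an unadjusted p below 0.05, 6 of 40 members were higher and 0 lower in edgeR, where 1592 of 16248 genes were higher and 1419 lower, and DESeq2, limma-voom and the TPM fits called none. Myh7 had the largest value, 3.31 ± 1.18 (adjusted p = 0.14), and Pvalb, the calcium buffer parvalbumin of fast fibres, had 187, 472 and 1140 CPM in 8w off treatment and 105, 193 and 433 CPM in AA skin, a difference of 1.26 ± 0.70 (adjusted p = 0.34). The median was 1.12, and 0.54 without 8w off treatment A and E.

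To reduce the part of the amount of muscle, each member was set against the mean log2 CPM of the tested members in its library. In these relative levels Myh1 averaged 4.30 ± 0.26 in the 6 systemic JAK1i libraries and 1.96 ± 0.54 in the other 18 (SD), a gap of 2.34 log2 units with no overlap. Xirp2, Ttn and Neb, the giant thin-filament ruler nebulin, were also higher without overlap, by 0.73, 0.52 and 0.51. Tnnt1 was lower without overlap, at -2.48, and the other 35 members overlapped, among them Mybpc1 at 1.19, Myh4 at -1.39, Myl2 at -1.40, Tnni1 at -1.72 and Myh7 at -2.95. Ckm, Pvalb and Ampd1 stood at 0.06, 0.04 and 0.00, and 7 of the 40 lay at least 1 log2 unit away from the rest. Because the members' own values set the mean, these are descriptions. The share of all genes separated on this measure was not computed. The low-count genes Tnnt1, Tnni1, Myh7 and Myl2 tracked the other members weakly, with r of 0.44, 0.39, 0.45 and 0.59. Their relative levels therefore still depend on the amount of muscle RNA. These genes are also part of the mean, so the relative levels of the other members can depend on that amount too. In the other 18 libraries the relative level spanned 0.96 to 2.45 for Ckm and -0.03 to 1.7 for Mylpf.

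The log2 ratio of all fast to all slow member counts was 5.08 to 6.44 in 8w off treatment, 4.22 to 4.71 in systemic JAK1i, 5.37 to 6.05 in AA and 3.46 to 5.92 in healthy skin. Mybpc1 alone gave 85.4 to 98.2% of the slow counts outside the healthy group and 85 to 96.9% within it. With Mybpc1 and Myh2 left out, the group means were 9.48, 10, 9.56 and 8.46 in 8w off treatment, systemic JAK1i, AA and healthy skin, so by group mean JAK1i skin changed from the lowest ratio to the highest. Single libraries overlapped: healthy E had the lowest full ratio, 3.46, and healthy C the highest ratio without Mybpc1 and Myh2, 10.61.

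Of the 46 further fibre genes, 9 rose and 1 fell in systemic JAK1i against AA, where 22.9% of all genes were called higher and 24.8% lower, with a median of 0.91; Fbp2, the muscle fructose bisphosphatase, rose by 2.01 ± 0.54 (adjusted p = 0.004), and the gene that fell was Tpm3 (-0.73 ± 0.11, adjusted p = 1.1e-05), a tropomyosin that other skin cells also make. In 8w off treatment against healthy 5 of the 46 rose and none fell, where 16.9% of all genes were called higher, led by Mylk4, a myosin light chain kinase, at 2.76 ± 0.66 (adjusted p = 0.0027). In 8w off treatment against AA, Mylk4 was the gene that rose, by 2.64 ± 0.66 (adjusted p = 0.043), where 0.726% of all genes were called higher. In 8w off treatment against systemic JAK1i 2 of the 46 rose and 1 fell, with a median of -0.07. In that comparison 19.4% of all genes were called higher and 16.6% lower. Among those that rose was Sln, sarcolipin, an inhibitor of the calcium pump, by 2.37 ± 0.69 (adjusted p = 0.0098). Sln was near the floor, with 1.74 to 8.63 CPM in 8w off treatment and 0.449 to 2.21 CPM in systemic JAK1i. Of 6 tested neuromuscular junction genes, 2 rose in AA against healthy, where 20.9% of all genes were called higher. Musk, the receptor kinase that gathers acetylcholine receptors under the nerve, rose by 1.68 ± 0.36 (adjusted p = 0.00079). Chrna1, a subunit of that receptor, rose by 1.38 ± 0.45 (adjusted p = 0.018), with 1.91 to 9.18 CPM in AA and 0.496 to 3.77 CPM in healthy skin. In 8w off treatment against healthy, Musk alone rose, by 1.48 ± 0.37 (adjusted p = 0.0035), where 16.9% of all genes were called higher. Of 5 tested myogenic regulator and satellite cell genes, with a median of 0.09 in AA against healthy, 1 rose and 1 fell. In that comparison 20.9% of all genes were called higher and 19.3% lower. Myog, the myogenin transcription factor, rose by 1.67 ± 0.59 (adjusted p = 0.028), and Pax3, a transcription factor of muscle progenitors that is also made by melanocyte precursors, fell by 0.98 ± 0.30 (adjusted p = 0.011). Myog was near the floor and overlapped, with 1.02 to 8.49 CPM in AA and 0 to 2.81 CPM in healthy skin.

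Several other measures moved with the groups. All 6 posterior Hox genes on a fixed list, which mark position along the body, rose in systemic JAK1i against AA, where 22.9% of all genes were called higher. Of the 6, 5 rose against healthy skin, where 0.511% of all genes were called higher. All 6 fell in 8w off treatment against systemic JAK1i, where 16.6% of all genes were called lower. Hoxc10 rose by 2.91 ± 0.40 against AA (adjusted p = 6e-06), and the 6 healthy libraries held 1 read of it in sum. Their summed share was 0.00246 to 0.00355% of counts in systemic JAK1i and 0.000566 to 0.00111% in the other 18 libraries. The 10 adipocyte genes all rose in systemic JAK1i against AA and all fell in 8w off treatment against systemic JAK1i. None was called in systemic JAK1i against healthy. In AA against healthy 9 of the 10 fell, where 19.3% of all genes were called lower. In 8w off treatment against healthy 9 also fell, where 15.7% were called lower. They took 0.0654 to 0.0925% of counts in 8w off treatment, 0.183 to 0.299% in systemic JAK1i, 0.0390 to 0.179% in AA and 0.0686 to 0.360% in healthy skin. Of 10 smooth muscle genes, 7 rose and 1 fell in systemic JAK1i against AA, where 22.9% of all genes were called higher and 24.8% lower. None of these was called in systemic JAK1i against healthy. In AA against healthy 1 rose and 5 fell, where 20.9% of all genes were called higher and 19.3% lower. The part of sampling site, depth of cut or biopsy in the muscle values was not tested, and biopsy, week of sampling and drug cannot be told apart in the systemic JAK1i group.

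Some members were counted poorly. Tnnc2, the fast troponin C, had at most 27 reads in any library and 0 to 3.06 CPM, yet 5.22 to 884 TPM, and it lies opposite Ube2c on chromosome 2; its log2 fold changes, -0.22 to 0.84 over the 6 comparisons, are those of the few reads left to it. Tnnc1, opposite Nisch, showed the same contrast, with 0 to 3.42 CPM and 2.70 to 11.6 TPM. Myl2 had at most 61 reads in a library and lies opposite Ccdc63. Of the 6 slow members that were tested, Mybpc1 had 47824 reads over the 24 libraries and Myoz2, calsarcin-1 of the Z-disc, 1227, while Myh7, Tnnt1, Myl2 and Tnni1 had 497, 390, 230 and 205.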

How the data were processed

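RNA from 24 skin samples had been made into stranded total RNA libraries. The authors aligned reads to mm10 (GRCm38) with HISAT2 2.0.1 and deposited read counts per gene from featureCounts 1.4.4, together with TPM values; the annotation release, the strand setting, the treatment of multiply mapped reads and the tool behind the TPM were not named in any source read here. The deposited TPM are not a rescaling of the counts for genes such as Tnnc2. Each table had 6 columns that match no sample, which were not used.

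Counts were filtered with filterByExpr (minimum count 10), scaled by TMM and fitted by group over all 24 libraries with edgeR 4.0.16 in R 4.3.3 (quasi-likelihood test, Benjamini-Hochberg adjustment). No replicate block was used in the main fit, and the labels do not tie the letters to animals. The deviations of libraries that share a letter had r of -0.24 to 0.41, with 0.38 for letter E in 8w off treatment against systemic JAK1i. Libraries with different letters were not compared, so a pairing by letter was not tested. Alternatives used DESeq2 1.42.0 and limma 3.58.1, other scalings and filters, log2(TPM + 0.1) and log2(TPM + 1), and each library left out in turn. The script was tested on simulated data. All members may be named, with per-library values for a fixed 20; from other lists at most the 2 smallest adjusted p and the 2 highest levels; and the 15 non-members most alike, of which 1 is not reported here. The members and lists were chosen with earlier results of these data known.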

Additional observations from a re-analysis of the deposited data

Results flagged for a closer look

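In 92 checks of a group of 6 libraries, 3 had a library far from the other 5 by Dixon's criterion, where chance alone flags about 1 in 20. Myh7 stood at 3.49 CPM in systemic JAK1i B, with the other 5 libraries at 0. In 8w off treatment D the log2 ratio of fast to slow member counts was 5.08, with the nearest library at 6.04. In the same library the log2 ratio of Myh1 to Myh4 TPM was -1.12, with the nearest at -2.95. Library D also had the highest values of Myh7, Myl2, Tnnt1 and Tnni1 of all 24 libraries.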

How the results depend on the processing

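Members called in systemic JAK1i against healthy numbered 1, against 2 with DESeq2, 34 with limma-voom and quality weights, 4, 12 and 2 with limma on log2(TPM + 0.1), log2(TPM + 1) and log2(TPM + 0.1) without a filter, and 0 to 2 when a library was left out. In AA against healthy the count was 0, against 1 with no filter on counts, 3 with limma-voom, and 1, 1 and 2 in the TPM fits, and 0 whichever library was left out. In 8w off treatment against healthy it was 1, against 36 with limma-voom and 0 with upper-quartile scaling, no filter, the 3 TPM fits or a fit of only these groups, and 0 to 5 when a library was left out, 5 being without healthy B or F. In systemic JAK1i against AA it was 5, against 14 with limma-voom, 27, 28 and 19 in the TPM fits, 32 in a fit of only these groups and 2 to 7 when a library was left out, 2 being without AA B and 3 without AA C, D or E. In 8w off treatment against systemic JAK1i it was 5, against 3 with a minimum of 20 counts, 4 with DESeq2, 17, 20 and 13 in the TPM fits and 3 to 5 when a library was left out, 3 being without systemic JAK1i C, D or E. In 8w off treatment against AA it was 0 under every alternative run. The cause of these differences was not tested.

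With the replicate letter as a block the count was 0 in systemic JAK1i against healthy, 0 in 8w off treatment against healthy and 4 in each of systemic JAK1i against AA and 8w off treatment against systemic JAK1i. The labels do not tie the letters to animals.

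Alternatives added after seeing the data gave, in systemic JAK1i against healthy, 0 without healthy A and E, 6 with scaling on the members alone, where 15737 of 16248 genes were called and the median of all genes was -3.9, and 6 with the members' mean as a covariate, where 71 genes were called. The member scaling gave 1 in AA against healthy, 0 in 8w off treatment against healthy, 1 in systemic JAK1i against AA and 2 in 8w off treatment against systemic JAK1i, and the covariate gave 4, 0, 16 and 20. All genes called in these comparisons were 14244, 15351, 1190 and 409 with the member scaling and 6819, 4638, 7266 and 6138 with the covariate. The member scaling and the covariate were built from the members they were then used to test. The members' differences are therefore centred by construction, and their counts under these settings are descriptions. In 8w off treatment against healthy the count was 0 without healthy A and E and 0 without 8w off treatment A and E.

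Changes of sign are listed only for members called in the main fit or in the alternative. The difference changed sign in 8w off treatment against systemic JAK1i on log2(TPM + 0.1), with or without a filter, for Myh7 (-0.23), Myl2 (-0.68), Tnnt1 (-0.22), Tpm1 (-1.30) and Des (-1.15), and on log2(TPM + 1) for Myh7 (-0.02), Myl2 (-0.42), Tnnt1 (-0.14), Tpm1 (-1.30), Cacna1s (-1.20), Des (-1.13) and Ldb3 (-1.27). Scaling on the members alone reversed Tpm1 in systemic JAK1i against healthy (-1.62) and in 8w off treatment against healthy (-1.38), and the covariate reversed Actn3 (-0.54) and Mybpc2 (-0.68) in systemic JAK1i against AA. Both settings were built from the members themselves, so these reversals are descriptions. The members' mean share was 0.498, 1.17 and 0.362% of TPM in 8w off treatment, systemic JAK1i and AA skin. The log2 ratio of fast to slow members was 9.48, 10, 9.56 and 8.46 in 8w off treatment, systemic JAK1i, AA and healthy skin without Myh2 and Mybpc1, and 6.18, 5.45, 5.75 and 4.58 in TPM, where healthy rather than systemic JAK1i skin was lowest. Of single results under all alternatives, 6050 kept their side of the threshold, 68 lost a call, 287 gained a call and 21 reversed. The 6050 include members that changed sign while called in neither fit.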
